A study of Mus musculus with 2 samples.

Results

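Barcodes with 2 or more molecules of Ctla2a were examined among dermal cells of the Pdgfra lineage from untreated (UT) and imiquimod-treated (IMQ) mouse skin. A unique molecular identifier (UMI) marks 1 captured transcript, and a barcode stands for 1 droplet, which usually holds a cell. Members were the barcodes of both libraries with 200 to 5000 detected genes, at most 10% of UMIs from mitochondrial (mt-) genes and at least 2 UMIs of Ctla2a, and are called Ctla2a-high here. They numbered 412 of the 2344 barcodes within these limits and of the 6462 barcodes deposited. Of these, 106 came from UT (1301 barcodes within the limits) and 306 from IMQ (1043 barcodes within the limits). The members were thus chosen by their measured Ctla2a UMIs. A working name for the group, detoxifying fibroblasts marked by Ctla2a, Cldn10, Nupr1, Mgst1 and Adh7, was checked against the data. It was not borne out as a whole: Mgst1 lay close to its level in barcodes without Ctla2a, as did Nupr1 in IMQ, and Nupr1 in UT was at or below it. Of the measured detoxification genes, 16.1% in UT and 3.13% in IMQ were at least 2-fold higher, against 5.47% and 2.91% of all tested genes. At least 2-fold lower were 3.23% and 3.13%, against 6.89% and 4.36%. The group is therefore called by its rule.

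Both groups were PdgfraDreER-tdTomato mice of the C57BL/6 strain aged 8 weeks. In these mice a tamoxifen-dependent recombinase driven by Pdgfra, a receptor gene used to mark fibroblasts, switches on tdTomato, so cells in which that promoter was not active at labelling are not represented. UT mice had no treatment, and IMQ mice received imiquimod, a Toll-like receptor agonist that induces psoriasis-like dermatitis, over 7 days. From the dermis, live CD45- tdTomato+ cells were sorted, which removes most leukocytes. There was 1 library for each group. Library and treatment cannot be told apart, no replicate stands behind any difference, p-values are therefore absent, and all intervals are 95% intervals that cover counting error only and no variation between mice.

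Ctla2a encodes a small protein that resembles the propeptide of cysteine cathepsins and inhibits proteases of the cathepsin L type. Detoxification proceeds in phases: oxidases and dehydrogenases such as alcohol and aldehyde dehydrogenases modify a compound, transferases such as glutathione S-transferases conjugate it, and antioxidant enzymes remove peroxides. Fibroblasts of the lower dermis and fascia are known for Pi16, Dpt and secreted matrix proteins, whereas those of the upper dermis and hair follicle express other markers.

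Ctla2a lies on the minus strand of chromosome 13 (chr13:60934155-60936625, GRCm38, GENCODE M21), on the same strand as the overlapping genes Gm49391 and Gm49393. Its paralog Ctla2b lies on the same strand (chr13:60895350-60897447) and overlaps Gm49391, Gm49392 and Gm49393. The 250 bases before the start of each are shown because these regions are alike while only Ctla2a was measured at appreciable levels. The sequences are from RefSeq (GRCm38.p6, chr13:60936626-60936875 and chr13:60897448-60897697, both minus strand, written 5′ to 3′), and capitals mark the motifs searched.
Ctla2a: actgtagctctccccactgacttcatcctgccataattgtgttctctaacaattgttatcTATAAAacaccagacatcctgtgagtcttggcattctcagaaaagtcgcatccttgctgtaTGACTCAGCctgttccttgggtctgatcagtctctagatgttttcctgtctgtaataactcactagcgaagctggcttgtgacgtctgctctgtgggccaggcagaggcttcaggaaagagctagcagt
Ctla2b: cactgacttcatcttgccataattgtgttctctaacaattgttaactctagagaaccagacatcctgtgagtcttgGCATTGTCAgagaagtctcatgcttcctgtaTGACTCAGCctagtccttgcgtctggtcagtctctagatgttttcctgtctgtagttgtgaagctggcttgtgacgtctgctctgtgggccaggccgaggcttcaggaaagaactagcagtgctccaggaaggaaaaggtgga

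Aligned, the 2 promoters matched at 209 of 272 columns (76.8%). The motifs below were searched on both strands. TGACNNNGC, the core of the antioxidant response element, was present in both promoters and in 10.2% of the 32851 promoters of this length in the RefSeq table. In both it was the stretch TGACTCAGC, and Ctla2b held a further match on the other strand (GCATTGTCA). TGACTCAGC also holds TGANTCA, an AP-1 motif found in 6.75% of promoters, so the 2 matches overlap. TATAAA, the sequence of the TATA box, was found in Ctla2a but not in Ctla2b, and in 12.4% of all promoters. The Ctla2a match lay at position -190 from the start, and whether it acts as a TATA box was not tested. Of the detoxification genes, 11 of the 69 with a promoter in the table held TGACNNNGC in at least 1 promoter. This counts genes, some of which may have several promoters, and cannot be set against the 10.2% of single promoters. The share over all genes was not measured. In the Ctla2a-high barcodes, Ctla2b had 2 UMIs in UT and 4 in IMQ, against 577 and 1806 UMIs of Ctla2a. None of the 451 windows of 50 bases in the last 500 bases of a Ctla2a transcript was found exactly in a Ctla2b transcript. Reads that span the overlapping gene models are nonetheless uncertain as to gene.

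The libraries differed in depth and composition. The median depth within the limits was 714 UMIs for UT barcodes and 688 for IMQ barcodes, and no barcode sequence was shared by the libraries within the limits. The transcript Gm42418, which overlaps a ribosomal RNA repeat, took 1.53% of the UMIs of Ctla2a-high barcodes in UT and 14.7% in IMQ. Malat1, a nuclear transcript, was seen in 10 of 106 Ctla2a-high barcodes in UT and in 8 of 306 in IMQ. The 6 UT members with 10 or more Malat1 UMIs held 18.7% of the UMIs of all UT members. The 7 general fibroblast genes (Col1a1, Col1a2, Col3a1, Dcn, Lum, Pdgfra and Pdpn) had 99300 CPM (the UMIs of a gene per 1000000 UMIs other than those of Ctla2a) in Ctla2a-high barcodes of UT and 139910 in those of IMQ that could be paired, but Pdgfra itself had only 1 and 3 UMIs there. Markers of other cell types were near 0 in most members: 5 members had UMIs of at least 3 genes of another type. In UT these were 1 barcode with 45 UMIs of 6 of 8 lymphoid genes and 1 with 52 UMIs of 7 of 10 endothelial genes, and in IMQ 1 with 10 myeloid UMIs and 2 with 81 and 4 endothelial UMIs. Below, named results that such barcodes moved by over 1.5 times are given with and without them, in settings chosen after the data had been seen: without barcodes in which the fibroblast genes held under 1% of UMIs, or without barcodes of 10 or more Malat1 UMIs (Malat1-rich).

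Both libraries passed the same sorting gate. Ctla2a-high barcodes made up 8.15% of the UT library within the limits (6.72% to 9.77%, exact binomial) and 29.3% of the IMQ library (26.6% to 32.2%). The Ctla2a UMIs are the values that chose the members, so these shares are a description. The share depended on depth, since a deeper barcode has more chances to show 2 molecules of a gene. In UT it was 3.13% of the 96 barcodes with 200 to 399 UMIs and 21.6% of the 97 with 2000 or more. In IMQ it was 10.0% of the 50 barcodes with 200 to 399 UMIs, 26.5% of 325 with 400 to 599, and 44.2% of 104 with 1200 to 1999. The IMQ share was above the UT share in each of the 6 depth classes, although their intervals overlapped in the shallowest and in the deepest, which held only 11 IMQ barcodes. After every barcode had been thinned at random to 400 UMIs, and shallower barcodes left out (96 in UT and 50 in IMQ), 4.23% of UT barcodes (3.17% to 5.53%, 51 of 1205) and 21.0% of IMQ barcodes (18.6% to 23.7%, 209 of 993) kept 2 or more Ctla2a UMIs.

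**Figure D1:**
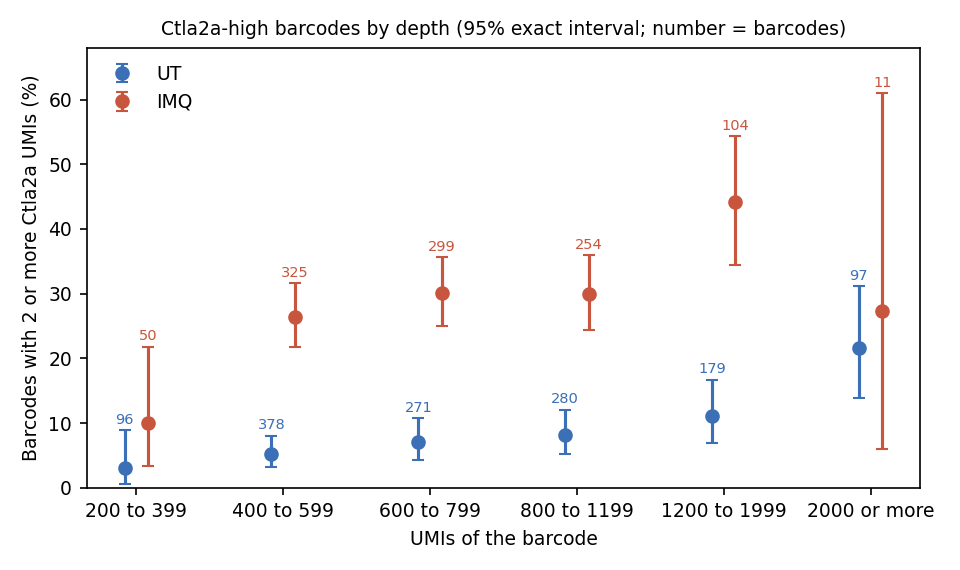
Share of barcodes with 2 or more Ctla2a UMIs (vertical axis, percent) by the total UMIs of the barcode (horizontal axis), in UT (blue) and IMQ (red), with exact binomial 95% intervals and the number of barcodes above each point. The UT share runs from 3.13% to 21.6% and the IMQ share lies above it in each class, with overlapping intervals in the shallowest and the deepest.

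Free RNA in the suspension can place UMIs in droplets whose cell does not make the transcript. A background level was sought in barcodes with 5 or more Cd74 UMIs, a class II gene that fibroblasts mostly lack. None of the 3 such barcodes in UT and none of the 4 in IMQ had a Ctla2a UMI, with median depths of 2062 and 593.5 UMIs, so with these few barcodes the background share could be as high as 70.8% and 60.2% and was not measured. Outside the limits, Ctla2a had 53.1 CPM (here of all UMIs) in UT and 1356 in IMQ, against 496 and 2318 within the limits. The IMQ barcodes outside the limits had a median of 303 UMIs. The part of free RNA in the IMQ share was not tested.

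Most members were close to the threshold. In UT, 42 members had 2 Ctla2a UMIs, 29 had 3 to 4, 22 had 5 to 9 and 13 had 10 or more. In IMQ, 82 members had 2, 86 had 3 to 4, 88 had 5 to 9 and 50 had 10 or more. The median member had 3 Ctla2a UMIs in UT and 4 in IMQ, the highest 38 and 42, and the 10 highest barcodes held 37.8% of the Ctla2a UMIs of the UT members and 14.7% of those of the IMQ members. Just inside the threshold, barcodes with 2 UMIs had a median depth of 1045 UMIs in UT and 691.5 in IMQ. Just outside it, the 76 UT and 158 IMQ barcodes with 1 UMI had median depths of 910 and 665 UMIs. Summed over members, Ctla2a had 3805 CPM in UT (3501 to 4128) and 6763 in IMQ.

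Because members were deeper than the rest (median 1014 UMIs in UT and 735.5 in IMQ, against 697 and 659 in barcodes with no Ctla2a UMI), each was paired with the Ctla2a-zero barcode of its own library nearest in UMIs. All 106 UT members and 305 of the 306 IMQ members were paired. The unpaired IMQ member had 14973 UMIs, of which 81 were of endothelial genes and 4 of fibroblast genes. UMIs were summed over each arm of pairs and divided by the sum without Ctla2a to give CPM, and the ratio of Ctla2a-high over Ctla2a-zero is given on the log2 scale with 1 UMI added to each arm. Over all genes with at least 20 UMIs, the median log2 ratio was -0.01 in UT (1901 genes) and -0.01 in IMQ (1787 genes). The median mitochondrial share was 2.25% in UT members against 2.95% in their pairs, and 4.13% against 5.25% in IMQ. With pairs matched on this share as well as on UMIs, 98 genes were at least 2-fold higher and 148 lower in UT and 73 and 63 in IMQ, and among the named genes the ratios that moved past their counting interval or turned were those of Cyp2f2, Gpx3, Mt2, Fos, Cd74, H2-Aa, H2-Eb1 and Lyz2 in UT.

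Of the 4 other genes in the working name, Cldn10 in IMQ and Adh7 in UT had an interval above 0. Cldn10, a claudin of paracellular ion channels, had 62 UMIs in Ctla2a-high and 45 in Ctla2a-zero barcodes of UT (log2 ratio 0.45, -0.12 to 1.04), and 110 against 56 in IMQ (0.95, 0.49 to 1.46). Whether the libraries differ was not tested. Adh7, an alcohol dehydrogenase that also oxidizes retinol, had 71 against 33 UMIs in UT (1.08, 0.48 to 1.74) and 57 against 47 in IMQ (0.26, -0.31 to 0.86). With all barcodes thinned, the UT ratio of Adh7 was 0.21.

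Nupr1, a stress-induced chromatin protein, had 121 against 153 UMIs in UT (log2 ratio -0.34, -0.70 to 0.01) and 499 against 497 in IMQ (-0.00, -0.19 to 0.18). Its UT ratio was -0.59 (-0.94 to -0.25) without barcodes under 1% fibroblast UMIs. Without Malat1-rich barcodes it was -0.40 (-0.77 to -0.03). Mgst1, a microsomal glutathione transferase, had 83 against 79 in UT (0.06, -0.40 to 0.53) and 154 against 127 in IMQ (0.27, -0.08 to 0.62). All 4 genes were seen together in 8 of the 106 Ctla2a-high and 4 of the 106 Ctla2a-zero barcodes of UT, and in 5 and 3 of 305 in IMQ. No UMI of any of them was found in 21 Ctla2a-high and 27 Ctla2a-zero barcodes of UT, and in 55 and 71 of IMQ. The intervals of these shares overlapped between members and their pairs in both libraries.

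The detoxification genes were examined as 3 lists of 81 genes in all, of which 31 in UT and 32 in IMQ had at least 20 UMIs. Their median log2 ratio was 0.16 in UT and 0.17 in IMQ. In UT, 5 were at least 2-fold higher in Ctla2a-high barcodes (16.1%, where 5.47% of all tested genes were) and 1 at least 2-fold lower (3.23%, where 6.89% were). In IMQ, 1 was at least 2-fold higher (3.13%, background 2.91%) and 1 at least 2-fold lower (3.13%, background 4.36%). The 5 UT genes were Adh7, the secreted selenium proteins Gpx3 and Selenop, and the metallothioneins Mt1 and Mt2. The IMQ gene was Ephx1, an epoxide hydrolase (20 against 8 UMIs, 1.21), which had 5 against 12 in UT, under the minimum.

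Gpx3, the secreted glutathione peroxidase (chr11:54902453-54910377), had the largest ratio of the 5 in UT. In UT it had 2849 CPM in Ctla2a-high barcodes (432 UMIs) and 762 in Ctla2a-zero barcodes (115 UMIs), a log2 ratio of 1.89 (1.60 to 2.21). In IMQ it had 1452 (366 UMIs) and 950 (238 UMIs), a log2 ratio of 0.61 (0.37 to 0.85). At 400 UMIs each, it was seen in 45.6% against 18.9% of UT barcodes and in 37.5% against 24.7% of IMQ barcodes. Without barcodes under 1% fibroblast UMIs its ratios were 1.84 and 0.65, and with pairs matched also on mitochondrial share 1.26 and 0.72. Selenop, which carries selenium in plasma, had 1161 against 444 CPM in UT (1.37, 0.97 to 1.81) and 1218 against 918 in IMQ (0.41, 0.16 to 0.66). Selenop overlaps Ccdc152 on the other strand.

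The metallothioneins rested on few barcodes. Mt2 had 117 against 53 UMIs in UT (log2 ratio 1.12), of which 40 were in 1 barcode, and it was seen in 16 barcodes of each arm. With pairs matched also on mitochondrial share its UT ratio was 2.23. Mt1 had 492 against 233 UMIs in UT (1.07, 0.84 to 1.30), with 101 in 1 barcode, and 276 against 295 in IMQ (-0.10, -0.35 to 0.14). Without barcodes of 10 or more Malat1 UMIs, the UT ratios were -0.45 for Mt1 and -1.48 for Mt2, while that of Gpx3 was 1.73 and that of Selenop 1.19.

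In the oxidation list, 1 gene was at least 2-fold higher in each library (14.3% in UT and 9.09% in IMQ). Of all tested genes, 5.47% and 2.91% were. In IMQ 1 gene of the list was at least 2-fold lower (9.09%, against 4.36% of all tested genes), and none was in UT. The median of the oxidation list was 0.51 in UT (7 genes) and 0.21 in IMQ (11 genes), and without barcodes under 1% fibroblast UMIs its UT median was 0.01. Cyp2f2, a xenobiotic cytochrome P450, had 626 against 437 CPM in UT (0.51; 1.12 with pairs matched also on mitochondrial share, -0.01 without barcodes under 1% fibroblast UMIs) and 833 against 719 in IMQ (0.21). Aldh3a1, an aldehyde dehydrogenase, was lower in the members: 18 against 30 UMIs in UT (-0.71, -1.67 to 0.15) and 36 against 93 in IMQ (-1.35, -1.98 to -0.81). The median of the conjugation list was 0.08 for UT (8 genes) and 0.29 for IMQ (7 genes), and none of its members reached 2-fold. Gstm1 and Gstp2, glutathione S-transferases, had intervals across 0 in both libraries. The median of the antioxidant list was 0.27 for UT (16 genes) and 0.08 for IMQ (14 genes). Nfe2l2, the master regulator of the antioxidant response, had 9 against 19 UMIs in UT (-1.01). Without barcodes under 1% fibroblast UMIs, none of the 15 antioxidant genes then measured in UT was 2-fold lower. In IMQ the lowest ratio of a measured antioxidant gene was -0.39.

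Since Ctla2a inhibits cysteine cathepsins, the cathepsins and their inhibitors were examined as a list. Its median was 0.55 in UT (11 genes) and 0.08 in IMQ (10 genes), and none of its genes was 2-fold higher. Ctsh, an aminopeptidase cathepsin, had 1497 against 821 CPM in UT (log2 ratio 0.86, 0.54 to 1.19) and 1115 against 723 in IMQ (0.62, 0.35 to 0.90). Ctsl, the protease of the type that Ctla2a inhibits, had 2057 against 1219 in UT (0.75, 0.49 to 1.03) and 1694 against 1333 in IMQ (0.34, 0.14 to 0.56). For both genes the interval lay above 0 in both libraries.

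Ctsz had a log2 ratio of 0.79 (0.23 to 1.40) in UT and 0.45 (-0.04 to 0.96) in IMQ. Ctsb had 0.61 (0.21 to 1.02) and 0.06 (-0.28 to 0.39). Ctsk, a collagenolytic cathepsin and the one with most UMIs on the list, had 5829 against 3894 CPM in UT (0.58) and 6898 against 6690 in IMQ (0.04). The gene that was lower by over 2-fold in UT was Ctss, a cathepsin of antigen-presenting cells, with 0 against 39 UMIs, of which 28 were in 1 Ctla2a-zero barcode. Cst3, a secreted inhibitor, had -0.25 in UT and 0.10 in IMQ. Without barcodes under 1% fibroblast UMIs, the ratio of Ctsl in UT was 0.38 and that of Ctsh 0.78.

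**Figure D2:**
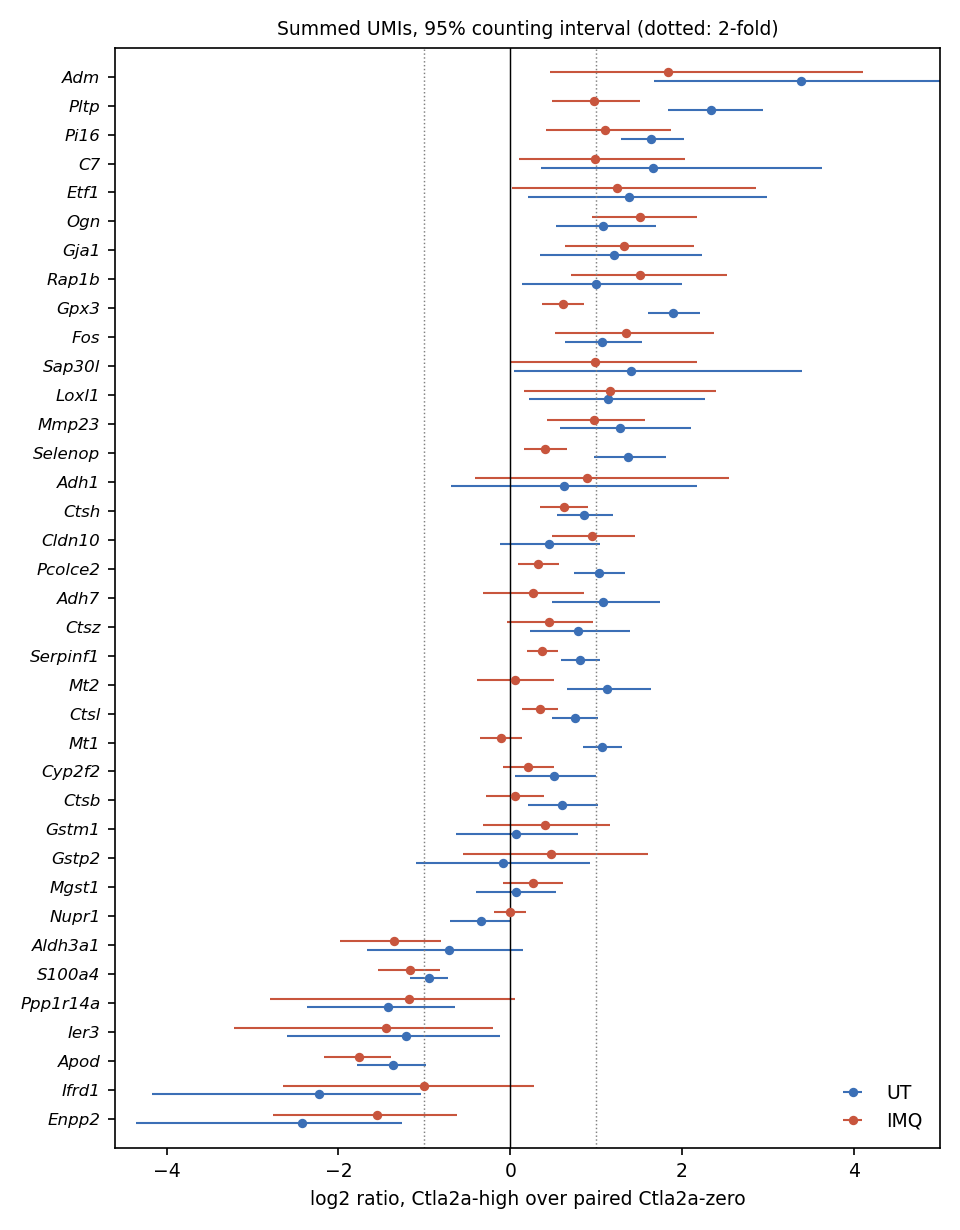
Log2 ratio of summed UMIs in Ctla2a-high over paired Ctla2a-zero barcodes (horizontal axis) for 37 named genes (vertical axis) in UT (blue) and IMQ (red), with 95% counting intervals and dotted lines at 2-fold. The UT interval of Adm runs past the axis to 9.69, and Cd74, H2-Aa, H2-Eb1, Lyz2 and Igfbp2 are not drawn. Pltp at 2.34 and Gpx3 at 1.89 in UT have narrow intervals far from 0. Most detoxification enzymes drawn lie within 2-fold, as did most of all tested genes.

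Across all genes, 104 were at least 2-fold higher and 131 at least 2-fold lower in Ctla2a-high barcodes of UT, and 52 and 78 in IMQ. These count sizes and are not calls of a test. Of the 1464 genes with at least 20 UMIs in both libraries, 7 were at least 2-fold higher in both (0.478%) and 10 at least 2-fold lower in both (0.683%). The 7 were 9.59% of the genes higher in UT and 21.2% of those higher in IMQ among the genes tested in both, and the 10 were 15.4% and 17.9% of those lower.

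The 12 genes with the highest ratios in both libraries are described next, of which 7 (Adm, Etf1, Fos, Gja1, Loxl1, Ogn and Pi16) were past 2-fold in both. Pi16, a peptidase inhibitor gene that marks fascial and adventitial fibroblasts, had 268 against 85 UMIs in UT (log2 ratio 1.64, 1.29 to 2.02), where 1 barcode held 60 UMIs, and 55 against 25 in IMQ (1.10, 0.42 to 1.87). Ogn, the small leucine-rich proteoglycan osteoglycin, had 82 against 38 in UT (1.08, 0.53 to 1.70) and 94 against 32 in IMQ (1.52, 0.95 to 2.17). Loxl1, a lysyl oxidase that crosslinks elastin, had 30 against 13 in UT (1.14) and 26 against 11 in IMQ (1.16). With all barcodes thinned, the UT ratio was 0.15 for Loxl1 and 2.97 for Ogn. Gja1, the gap junction protein connexin 43, had 36 against 15 in UT (1.20, 0.35 to 2.23) and 57 against 22 in IMQ (1.33, 0.63 to 2.15). Ogn overlaps Cenpp, and Pi16 overlaps AC162182.1, on the other strand.

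Pltp, the phospholipid transfer protein of lipoproteins (chr2:164839518-164857711, overlapping Ctsa on the other strand), had the largest UT ratio of the genes chosen by share or by both libraries that were seen in at least 50 UT members. It had 1167 CPM in Ctla2a-high barcodes of UT (177 UMIs) against 225 (34 UMIs), a log2 ratio of 2.34 (1.84 to 2.95). In IMQ it had 397 (100 UMIs) against 200 (50 UMIs), 0.98 (0.49 to 1.51). At 400 UMIs each, it was seen in 29.1% against 8.84% of UT barcodes and 16.3% against 5.90% of IMQ barcodes. Mmp23, a matrix metalloproteinase gene, had 55 against 22 UMIs in UT (1.28) and 82 against 41 in IMQ (0.97). With all barcodes thinned, the UT ratio was 0.12 for Mmp23 and 1.84 for Pltp. C7, a terminal complement component, had 18 against 5 in UT (1.66), with 8 in 1 barcode, and 31 against 15 in IMQ (0.99).

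The remaining genes higher in both were few in UMIs or concentrated. Etf1, a translation termination factor, had 20 against 7 in UT (1.39) and 18 against 7 in IMQ (1.24). Rap1b, a small GTPase, had 33 against 16 (0.99) and 45 against 15 (1.51), and Sap30l, a corepressor subunit, 15 against 5 (1.41) and 25 against 12 (0.99). With all barcodes thinned, the UT ratios of Etf1, Rap1b and Sap30l were 0.07, -0.12 and -0.26, while that of Fos was 1.555. Fos, an immediate early AP-1 gene, had 136 against 64 UMIs (1.07) in UT, where 1 barcode held 65, and 40 against 15 in IMQ (1.35). Adm, the vasoactive peptide adrenomedullin, had 20 against 1 in UT (3.39, 1.67 to 9.69), where 1 barcode held 10, and 17 against 4 in IMQ (1.84, 0.46 to 4.11). Without barcodes of 10 or more Malat1 UMIs, the UT ratio of Fos was -1.02 (13 against 27 UMIs), so in UT Fos was not higher outside these barcodes. Adm then had 1 against 1 UMI in UT (-0.02, -6.32 to 6.27), too few to tell. Without barcodes under 1% fibroblast UMIs the IMQ ratio of Adm was 1.16 (-0.07 to 2.78).

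By the share of barcodes with a UMI at 400 UMIs each, the 5 genes that differed most between members and Ctla2a-zero barcodes were Gpx3, Pltp, S100a4, Serpinf1 and Pcolce2. Serpinf1, which encodes the secreted antiangiogenic protein PEDF, was seen in 59.2% against 40.9% of UT barcodes and 58.1% against 40.8% of IMQ barcodes. Its log2 ratios were 0.81 (0.59 to 1.04) and 0.38 (0.19 to 0.56). Pcolce2, an enhancer of procollagen C-proteinase, was seen in 56.3% against 32.9% and in 37.9% against 27.7%, with ratios of 1.03 (0.74 to 1.34) and 0.33 (0.09 to 0.57).

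S100a4, a calcium-binding protein also known as fibroblast-specific protein, went the other way. It was seen in 42.7% of UT members against 72.6% of Ctla2a-zero barcodes, and in 12.6% against 24.4% in IMQ. It had 1728 against 3325 CPM in UT (262 and 502 UMIs, log2 ratio -0.94, -1.17 to -0.73) and 373 against 842 in IMQ (94 and 211 UMIs, -1.17, -1.54 to -0.82). Without barcodes under 1% fibroblast UMIs the ratios were -0.95 and -1.16. S100a4 overlaps Gm42674 on its own strand.

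Of the 10 genes at least 2-fold lower in both libraries, 4 were genes of antigen-presenting and myeloid cells. Cd74, H2-Aa, H2-Eb1 and Lyz2 had 1012, 293, 341 and 79 UMIs in UT Ctla2a-zero barcodes, of which 710, 210, 244 and 64 were in 1 barcode, and 2, 0, 0 and 0 in UT members. Without barcodes under 1% fibroblast UMIs, H2-Aa had 0 against 3, H2-Eb1 0 against 4 and Lyz2 0 against 0 UMIs in UT, and the Cd74 ratio was 0.56. In IMQ, where the groups had fewer of these UMIs, Cd74 then had 3 against 19, H2-Aa 0 against 10, H2-Eb1 1 against 7 and Lyz2 6 against 13. Igfbp2, an IGF-binding protein, had 9 UMIs in 2 UT members against 73 in 14 barcodes (-2.89). In IMQ members it had 0 against 27 UMIs in 12 barcodes, at least 9.06-fold lower. Enpp2, the enzyme autotaxin that makes lysophosphatidic acid, had 5 against 31 in UT (-2.42, and -3.63 without barcodes under 1% fibroblast UMIs) and 11 against 34 in IMQ (-1.55).

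Ppp1r14a, an inhibitor of myosin phosphatase, had 17 against 47 UMIs in UT (-1.42, -2.37 to -0.65) and 7 against 17 in IMQ (-1.18, -2.80 to 0.05). Apod, a lipocalin, had 72 against 186 in UT (-1.36) and 72 against 244 in IMQ (-1.76), but 1 Ctla2a-zero barcode held 87 of the UT and another 153 of the IMQ UMIs, and at 400 UMIs each it was seen in 11.7% against 17.2% and 10.3% against 11.8%. Ier3 and Ifrd1, immediate early genes, had ratios of -1.21 and -2.23 in UT and -1.45 and -1.01 in IMQ on at most 27 UMIs an arm. In a random draw to 400 UMIs both were above 0 in UT, at 1.20 and 1.00, on few UMIs. By another such draw, Ier3 had 0, 0 and 1 UMIs in UT members with 2 to 3, 4 to 7 and 8 or more Ctla2a UMIs. Ifrd1 had 1, 0 and 1 there, and the 1029 Ctla2a-zero barcodes had 7 and 25. Ier3 was at -0.34 in UT without barcodes under 1% fibroblast UMIs.

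The members were graded by their own Ctla2a count, at 400 UMIs each. In UT, S100a4 was seen in 72.6% of the 1029 barcodes with 0 Ctla2a UMIs, 45.2% of the 73 with 1, 50.8% of the 59 with 2 to 3, 43.5% of the 23 with 4 to 7, and 19.0% of the 21 with 8 or more. In IMQ it was seen in 24.4%, 11.3%, 15.7%, 12.4% and 7.69% of the same classes. The largest step was thus between 0 and 1 UMI in both libraries.

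Pltp had 8.84%, 12.3%, 20.3%, 39.1% and 42.9% over the classes in UT, and 5.90%, 8.00%, 17.2%, 15.7% and 15.4% in IMQ. Gpx3 had 18.9% at 0 and 52.4% at 8 or more in UT, with the highest share, 65.2%, at 4 to 7. In IMQ it had 24.7% at 0 and 37.2% at 8 or more, with the highest share at 2 to 3 (55 of 134 barcodes). Pi16 was seen in 10.6%, 30.1%, 16.9%, 34.8% and 57.1% of UT barcodes over the classes, and in 4.61%, 5.33%, 7.46%, 6.74% and 2.56% (2 of 78) of IMQ barcodes. Nupr1 had 30.6% at 0 and 23.8% at 8 or more in UT, and 46.3% and 51.3% in IMQ. The UT classes above 3 UMIs held few barcodes, and their intervals were wide.

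**Figure D3:**
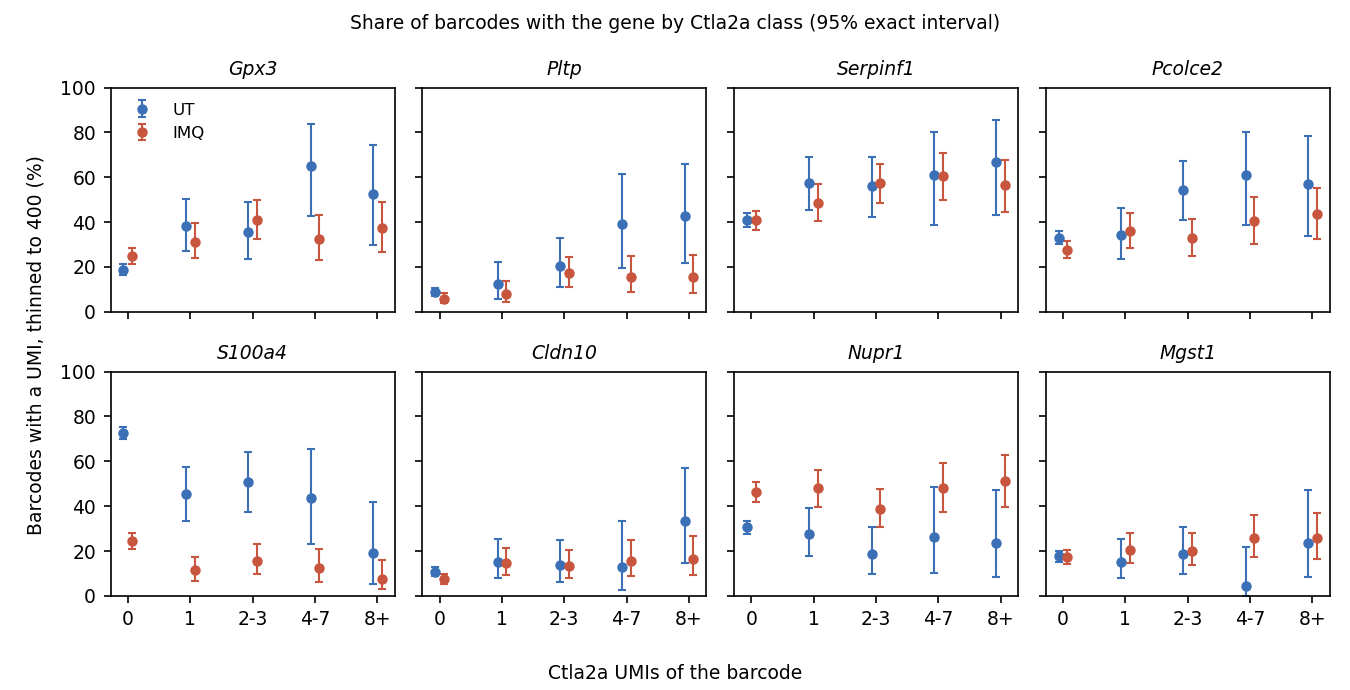
Share of barcodes with at least 1 UMI of 8 genes after thinning to 400 UMIs (vertical axes, percent) by the Ctla2a UMIs of the barcode before thinning (horizontal axes), in UT (blue) and IMQ (red), with exact binomial 95% intervals. S100a4 has its highest share at 0 Ctla2a UMIs in both libraries (72.6% and 24.4%), Pltp and Gpx3 have their lowest share there, and Nupr1 shows no such order.

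Of the fibroblast subtype lists with more than 1 measured gene, the fascial and the reticular had medians above 0 in both libraries. The dermal sheath list, with 1 measured gene, was also above 0 in both (0.19 in UT and 0.76 in IMQ). The fascial list had a median log2 ratio of 1.03 in UT (6 genes, 3 of them 2-fold higher, where 5.47% of all tested genes were) and 0.66 in IMQ (6 genes, 1 of them 2-fold higher, where 2.91% were). Its genes with most UMIs were Pi16, Ly6c1 (0.83 and 0.16) and Dpt, dermatopontin (0.95 and 0.05). The reticular list had 0.94 in UT (5 genes) and 0.25 in IMQ (6 genes). It includes Gpx3, Clec3b, tetranectin (0.72 and 0.24), and Igfbp6 (0.94 and 0.27). In IMQ its gene Mgp, matrix Gla protein, had 7 against 38 UMIs (-2.29), of which 17 of the 38 were in 1 barcode. Without barcodes under 1% fibroblast UMIs the fascial medians were 0.94 and 0.46 and the reticular medians 0.55 and 0.18.

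Papillary and dermal papilla genes were scarce. Of the 12 papillary genes, 2 were measured in UT and 0 in IMQ, and of the 10 dermal papilla genes 1 in UT and 0 in IMQ. Crabp1, a retinoic acid-binding protein of papilla cells that is on both lists, had 11 against 153 UMIs in UT (-3.69), of which 46 were in 1 Ctla2a-zero barcode, and -2.39 without barcodes under 1% fibroblast UMIs. At 400 UMIs each it was seen in 5.83% against 10.1% of UT barcodes. Of the retinoid list, Rarres2, the chemoattractant chemerin, had 3159 against 1782 CPM in UT (0.82, 0.61 to 1.05) and 2178 against 1589 in IMQ (0.45, 0.27 to 0.64), and Cyp26b1, which degrades retinoic acid, had 18 against 42 UMIs in IMQ (-1.19). Over the retinoid list the median was 0.60 in UT (5 genes) and 0.15 in IMQ (4 genes).

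Matrix genes differed by class of matrix. The interstitial matrix list had medians of 0.38 in UT (9 genes) and 0.11 in IMQ (10 genes), with Col1a1 at 0.31 and 0.07 and Sparc at 0.22 and 0.21. Fn1, fibronectin, had 38 against 12 UMIs in UT (1.58; 0.98 without Malat1-rich barcodes) and 69 against 63 in IMQ (0.12). The proteoglycan list had medians of 0.38 (7 genes) and 0.27 (8 genes), where Omd, osteomodulin, had 47 against 16 UMIs in IMQ (1.49, 0.70 to 2.46) beside Ogn. The basement membrane list had medians of -0.57 in UT (8 genes) and -0.36 in IMQ (8 genes). In IMQ all 8 of its genes were below 0 and 2 were at least 2-fold lower, where 4.36% of all tested genes were: Hspg2, perlecan (12 against 27 UMIs, -1.12), and Col18a1 (9 against 20, -1.08). Over the general fibroblast genes the median was 0.37 in UT and 0.08 in IMQ (6 genes each), and 0.12 and 0.04 without barcodes under 1% fibroblast UMIs.

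The complement list had medians of 0.95 in UT (6 genes) and 0.10 in IMQ (8 genes). C1s1 had 59 against 22 UMIs in UT (1.38) and 45 against 56 in IMQ (-0.32), and C3 had 31 against 67 in IMQ (-1.10, -1.79 to -0.49). Serping1, the C1 inhibitor, had 0.57 (0.34 to 0.80) in UT and 0.39 (0.17 to 0.62) in IMQ. The lipid list had 0.46 and 0.17 (5 genes each), with Apoe at 0.19 and -0.15 and Lpl, lipoprotein lipase, at 1.16 and 0.68. In the IGF list (0.00 and -0.20, 6 genes each), Igfbp5 had -0.12 and -0.62 and Igfbp7 0.11 and -0.56, and Igfbp3 had 9 against 149 UMIs in UT (-3.91), of which 52 of the 149 were in 1 barcode, and 1 against 4 without Malat1-rich barcodes. The 2 measured junction genes were Cldn10 and Gja1, with medians of 0.83 for UT and 1.14 for IMQ.

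Stress and immune response lists were also counted. The ATF4 stress list, which includes Nupr1, had medians of -0.34 in UT (9 genes) and 0.09 in IMQ (8 genes). Its gene Atf3 had 41 against 6 UMIs (2.58) in UT, and 1 barcode held 20; without Malat1-rich barcodes it had 7 against 2. The dissociation stress list had 0.25 (14 genes, 4 of them 2-fold higher, 28.6% against 5.47% of all tested genes) and 0.32 (8 genes), and without barcodes of 10 or more Malat1 UMIs its UT median was -1.11 over the 4 genes still measured. The interferon list had -0.05 in UT and -0.22 in IMQ (6 genes each), where H2-D1, a class I gene, had 285 against 433 UMIs in IMQ (-0.61, -0.83 to -0.39). Of the 14 IL-17 and NF-kB genes only Nfkbia was measured, at -0.94 and -1.36, and of the 12 proliferation genes only Tubb5, at -0.01 and -0.10. Of the 10 Wnt antagonists, Dkk2 had 1 against 76 UMIs in UT (1 against 5 without barcodes under 1% fibroblast UMIs, 1 against 3 without Malat1-rich ones) and Sfrp1 30 against 17 (0.78), and of the 8 dermal sheath genes only Cald1 was measured, at 0.19 and 0.76.

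**Figure D4:**
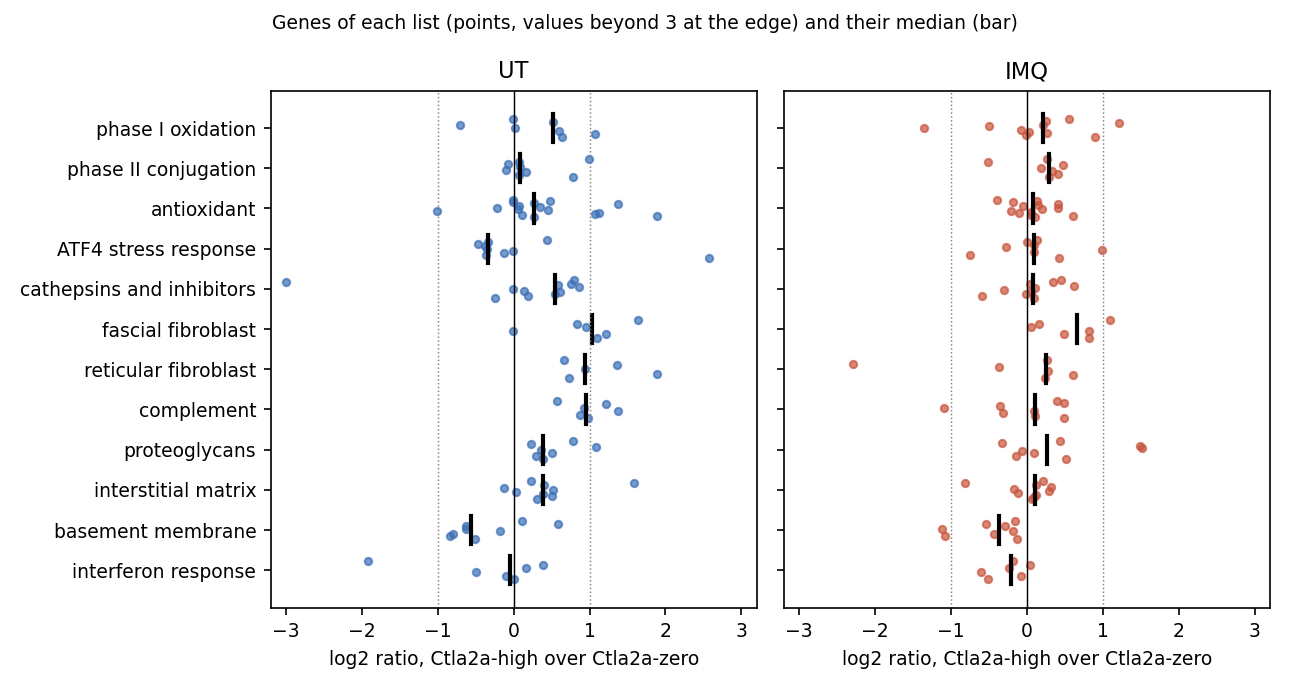
Log2 ratio of Ctla2a-high over paired Ctla2a-zero barcodes (horizontal axes) for the measured genes of 12 lists (vertical axis; points are genes, bars are medians) in UT (left) and IMQ (right), with dotted lines at 2-fold and values beyond 3 drawn at the edge. The fascial, complement and reticular medians are 1.03, 0.95 and 0.94 in UT and 0.66, 0.10 and 0.25 in IMQ, and the basement membrane medians are -0.57 and -0.36.

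Other cell types' genes in the members were counted in full. In UT pairs, the keratinocyte list had 12 UMIs in members against 433 in Ctla2a-zero barcodes, 418 of the latter in 1 barcode, and the myeloid list 21 against 2113, with 1528 in 1 barcode. Mural genes had 17 against 26 UMIs in UT and 26 against 12 in IMQ. Adipocyte genes had 1 against 0 and 1 against 1. The endothelial list had 52 against 1 UMIs in UT, all 52 in 1 member, and 6 against 10 in IMQ. The lymphoid list had 45 against 0 in UT, in 1 member, and 0 against 0 in IMQ. Schwann cell and melanocyte genes had 6 against 17 in UT and 30 against 10 in IMQ. Of these 30 UMIs, 28 were of Mlana, in 26 members against 6 UMIs in 5 Ctla2a-zero barcodes (log2 ratio 2.04, 0.91 to 3.78), while 8 of the 10 genes of that list were at 0 in IMQ members.

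The members of IMQ were then set beside those of UT. The ratio of IMQ to UT members had a median of -0.56 (log2) over 1926 genes, and of -0.60 in the paired Ctla2a-zero barcodes, so ratios are given relative to the median gene. As summed, 71 genes were at least 2-fold higher (3.69%) and 547 at least 2-fold lower (28.4%) in IMQ members. This split depended on the scaling: with TMM factors it was 211 higher and 185 lower, and with median-of-ratios factors 302 and 117. Cthrc1, a collagen triple helix repeat protein of activated fibroblasts, had 94 UMIs in 52 IMQ members and 0 in UT members, at least 17.8-fold higher. In Ctla2a-zero barcodes it had 47 and 1, and within IMQ its log2 ratio of members over their pairs was 0.98 (0.47 to 1.53). Dbp, a circadian transcription factor, had 37 against 0, at least 7.00-fold higher, and 30 against 1 in Ctla2a-zero barcodes.

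Lars2, a mitochondrial leucyl-tRNA synthetase, had 2372 against 140 UMIs (3.82 above the median gene), and 3.28 above it in Ctla2a-zero barcodes. The share of Gm42418 moved the same way between the libraries, as given above, and its part in the Lars2 value was not tested. Irx2, a homeobox gene, had 36 UMIs in 32 IMQ members against 3. Scarb1 and Socs3 had 41 against 2 and 48 against 4 UMIs, but 40 and 44 of these were in 1 IMQ member, the unpaired barcode with endothelial genes. Without the barcode with most UMIs of the gene, their log2 ratios of IMQ over UT were -1.32 and -0.73.

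Among the genes lower in IMQ members, Meg3, a noncoding RNA, had 0 UMIs against 119 in 6 UT members (81 of them in 1), at least 69.9-fold lower. Klk1b21, a kallikrein, had 0 against 29 in 14 members, at least 17.0-fold lower, and 0 against 20 in Ctla2a-zero barcodes. A330069E16Rik had 0 against 27 in 3 members, Hspa1a, a heat shock gene, 4 against 47 in 9 members, and Klf2, a flow-responsive transcription factor of endothelium, 14 against 91, 49 of the latter in 1 member. Without Malat1-rich barcodes 2 Meg3 UMIs were left in UT members, and the log2 ratios of IMQ over UT went from -7.72 to -2.61 for Meg3, from -5.62 to -1.03 for A330069E16Rik, from -4.08 to -2.03 for Hspa1a and from -3.43 to -0.44 for Klf2. Plac9b had 16 UMIs in 16 IMQ members against 95 in 60 UT members (-2.75 relative to the median gene), and 17 against 70 in Ctla2a-zero barcodes (-2.11).

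The course of several named genes between the libraries is given next in members and in Ctla2a-zero barcodes. The gap between the 2 values of a gene largely restates its member over pair ratios in UT and IMQ given above. It is no separate result, and the genes were chosen partly by their UT ratios. Relative to the median gene, Gpx3 was at -0.49 in members and 0.92 in Ctla2a-zero barcodes, Pltp at -1.04 and 0.42, and Selenop at 0.64 and 1.64. Pi16 was at -2.52 in members and -1.85 in Ctla2a-zero barcodes, and S100a4 at -1.72 and -1.37. Nupr1 was at 1.78 and 1.57, and Col1a1 at 1.32 and 1.68. Whether these courses differ between the classes beyond mouse-to-mouse variation could not be tested with 1 library a group. The 30 detoxification genes measured in this comparison had a median of -0.47 as summed, 0.13 with TMM factors and 0.35 with median-of-ratios factors. Such factors shift all genes alike, so the list was necessarily 0.09 above the median gene in each. Over the other settings this distance ran from -0.40 with at least 500 genes to 0.12 without the barcode with most UMIs of each gene.

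**Figure D5:**
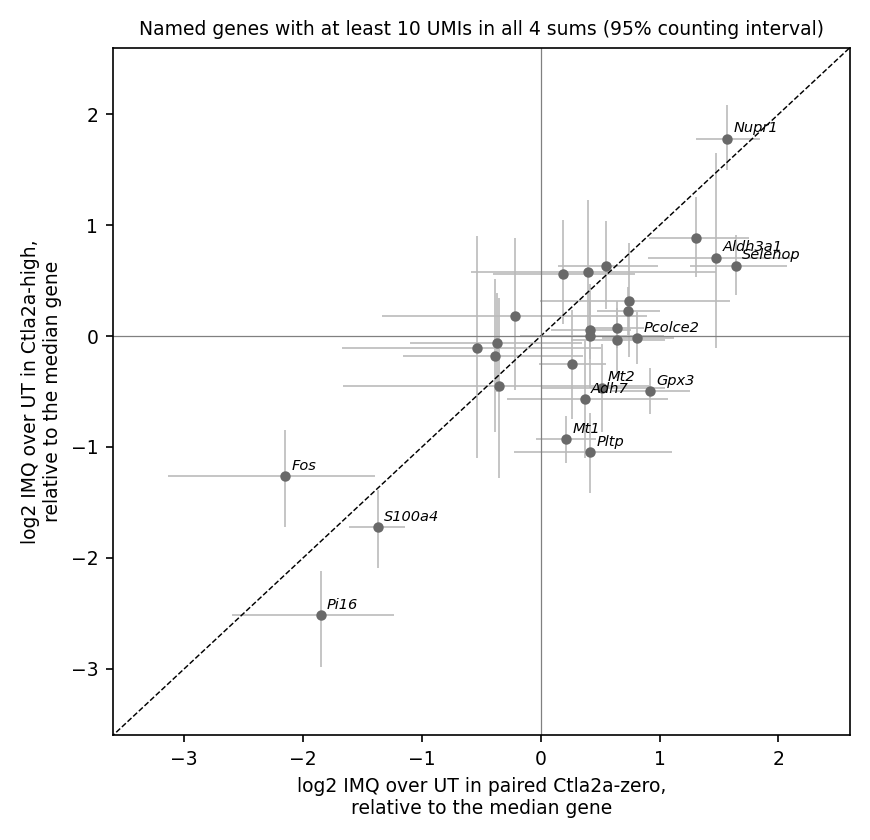
Log2 ratio of IMQ over UT relative to the median gene in paired Ctla2a-zero barcodes (horizontal axis) and in Ctla2a-high barcodes (vertical axis) for the 28 named genes with at least 10 UMIs in all sums. Lines at each point are 95% counting intervals, the dashed line marks equal values, and genes far from 0 or from that line are labelled. Gpx3 (0.92 and -0.49) and Pltp (0.42 and -1.04) lie below the dashed line, and S100a4 and Pi16 lie low in both classes. The distance from the dashed line largely restates the UT and IMQ ratios of members over their pairs.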

How the data were processed

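Libraries were made with the Chromium Single Cell 3′ v3 kit. The authors deposited counts as 1 sparse matrix of whole UMIs by gene and barcode per library, with no normalization. Per the file headers, these came from Cell Ranger 3.0.0 (UT) and 3.1.0 (IMQ). The submitters' processing notes name CASAVA and mm10. The annotation and the use of strand in counting are not given in the sources used here. The deposited IMQ matrix holds 5047 barcodes, fewer than the cells the study analysed, so every IMQ value describes that matrix. Of 31053 gene identifiers, 31011 matched GENCODE M21. The members and gene lists were chosen with earlier results of these data known.

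Barcodes with 200 to 5000 genes and at most 10% mt- UMIs were kept (the study used 5%), and cells had been sorted through a gate against doublets, and doublets were called and removed only in an alternative (Scrublet, scanpy 1.11.5, 0.8% per 1000 barcodes). Each member was paired, deepest first and without replacement, with the nearest Ctla2a-zero barcode within 0.25 on the log2 scale of UMIs without Ctla2a. Genes with at least 20 UMIs over both arms were compared, with 1 UMI added to each arm. Ratios have exact conditional binomial intervals, sums Poisson intervals and shares Clopper-Pearson intervals at 95% (scipy 1.17.1, numpy 2.4.6, pandas 2.3.3, Python 3.11.15). Against an arm at 0 the fold is a bound computed with 3 counts for the arm. Thinning drew 400 UMIs per barcode without replacement and kept all Ctla2a-zero barcodes of at least that depth. Thinned ratios and thinned shares came from separate random draws, and variation between draws was not measured. Depths ran from a median of 714 (UT) to 688 (IMQ) UMIs per barcode within the limits, and 1 UMI was worth 6.59 CPM (UMIs scaled to the total without Ctla2a) in UT members and 3.97 in IMQ members. Scaling factors were from edgeR 4.0.16 and DESeq2 1.42.0 in R 4.3.3. The steps were tested on simulated data.

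Named genes were Ctla2a, Ctla2b and the 4 other genes of the working name; the 4 genes with the largest mean ratio in each of the oxidation, conjugation, antioxidant and cathepsin lists (1 of them is not reported here); the 12 highest and 10 lowest by the weaker of the 2 libraries' ratios; the 6 highest and 6 lowest of IMQ over UT members with at least 100 CPM; and the 5 with the largest difference in thinned share. Other genes of the lists, such as Ephx1, Ctsk and Mlana, are examples chosen after their values were seen, as were the settings on fibroblast and Malat1 UMIs and on the top UT barcode.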

Additional observations from a re-analysis of the deposited data

Results flagged for a closer look

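Mt1 was higher in Ctla2a-high than in Ctla2a-zero barcodes of UT (log2 ratio 1.07, 492 against 233 UMIs) and lower in those of IMQ (-0.10, 276 against 295 UMIs). The values lay on opposite sides of 0, the IMQ interval (-0.35 to 0.14) crossed 0, and the difference was not tested. Without barcodes of 10 or more Malat1 UMIs the UT ratio was -0.45 (-0.74 to -0.16), on the same side as IMQ. In UT 1 member held 101 of the 492 UMIs, and at 400 UMIs each Mt1 was seen in 33.0% of UT members and 34.2% of Ctla2a-zero barcodes.

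Barcodes outside the limits on genes and mitochondrial share are used in no comparison. Among the 4004 such IMQ barcodes, 423 (10.6%, exact binomial interval 9.63% to 11.6%) had 2 or more Ctla2a UMIs, against 1 of 114 (0.877%) in UT. They had a median of 303 UMIs in IMQ and 430.5 in UT, and a median mitochondrial share of 10.6% and 10.2%.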

How the results depend on the processing

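No paired analysis was possible because each group has 1 library. The share of Ctla2a-high barcodes was 13.3% in UT and 41.8% in IMQ with at least 500 genes, 4.23% and 21.0% when thinned, and 32.7% in IMQ with a mitochondrial maximum of 5%. The UT median of the detoxification list was 0.027 against all Ctla2a-zero barcodes and 0.024 without the barcode with most UMIs of each gene. The IMQ over UT median of that list was 0.13 with TMM, 0.35 with median-of-ratios factors and -0.15 with totals that leave out mt-, Rpl and Rps genes, Gm42418 and AY036118. Counts of genes past 2-fold depended on the settings, in UT from 104 higher and 131 lower to 445 and 431 against all Ctla2a-zero barcodes, 283 and 198 thinned, 225 and 450 with at least 10 UMIs, 34 and 26 with at least 50, 1007 and 3077 with at least 1, 48 and 197 without the top barcode, and 56 higher without barcodes of 10 or more Malat1 UMIs. In IMQ they went from 52 and 78 to 103 and 161 against all Ctla2a-zero barcodes, 12 and 18 with 500 genes, 194 and 263 with at least 10 UMIs, 11 and 11 with at least 50, 1016 and 2368 with at least 1, 30 higher without the top barcode, 51 lower thinned and 25 lower with the 5% maximum. More genes are tested at lower minimums; the cause of the other differences was not tested.

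Sign changes were counted only for named genes with a reported ratio of at least 2-fold, and 22 values turned. Of all other values, 1214 stayed within the 95% counting interval of the reported value and 124 moved beyond it. Sign changes of smaller ratios are among these, such as Rap1b in UT (0.99 as reported, -0.12 in the random draw that thinned the barcodes). Variation between such draws was not measured. Without barcodes of 10 or more Malat1 UMIs the UT ratios were -1.48 for Mt2, -0.45 for Mt1, -0.021 for Adm (1 against 1 UMI) and -1.02 for Fos. Matched also on mitochondrial share they were -0.94 for Fos and 1.58 for Cd74, and with at least 1% fibroblast UMIs 0.56 for Cd74. Thinned by a random draw, which left few UMIs of these genes in the members, the UT ratios were -0.26 for Sap30l, 1.20 for Ier3 and 1.00 for Ifrd1. In IMQ, Fos was -0.078 against all Ctla2a-zero barcodes, and Cd74 and Lyz2 were 1.54 and 2.76 with at least 500 genes. The IMQ over UT ratio of Scarb1 was -0.64 with the 5% maximum, -0.55 thinned, -1.84 with at least 1% fibroblast UMIs, -1.03 without Malat1-rich barcodes and -1.32 without the top barcode. That of Socs3 was -0.79, -0.55, -0.84 and, without the top barcode, -0.73.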
